A study of Mus musculus with 11 samples.

Results

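Collagen chain genes were examined in primary lung fibroblasts of mice lacking cGAS and of wild-type mice. The members are every gene whose mouse symbol has the form Col, a number, the letter a and a number. This rule uses names and no measured value, and it gave 44 of the 56980 Ensembl genes in the count tables: 11 fibrillar, 8 of basement membranes, 9 FACIT (fibril-associated collagens with interrupted helices) and 16 of other types. The 11 RNA sequencing libraries came from 6 animals labelled cGAS KO (3 females, 3 males) and 5 labelled WT (2 females, 3 males). cGAS is the enzyme that senses DNA in the cytosol and signals through STING, and the study asked what its loss changes in the transcriptome of these cells. All groups were cultured alike, at 37 °C in 5% CO2 and 5% O2 in a DMEM/F12 medium with 15% FBS and antibiotic-antimycotic, and ribosomal RNA was depleted. The labels name neither strain nor age, nor how the cGAS allele was made. The RNA purification protocol mentions pulverized tissue although the growth protocol describes cultured cells, and which of these applies was not settled. Female and male libraries carry names of different styles in the deposited data, although their sample titles share a form. No label names a preparation or batch. Whether the sexes were prepared apart is thus not known, and such a difference could not be told apart from sex.

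Collagens are the main structural proteins of the extracellular matrix, and each molecule is a helix of 3 chains, identical or mixed, that is assembled inside the cell and secreted. Fibrillar collagens form the cables that give lung tissue its tensile strength, network-forming type IV collagen carries the basement membranes under epithelium and endothelium and around smooth muscle, FACIT collagens sit on the surface of fibrils, and beaded type VI collagen links cells to the matrix around them. Fibroblasts are the chief source of fibrillar collagen in the lung, and their output increases in fibrosis.

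Total counts per library ran from 27261958 to 48039328, so that 3 counts, the upper limit that a count of 0 allows, correspond to 0.0609 to 0.110 CPM (counts scaled to a common depth, with library sizes scaled by TMM). Cgas was at 1.63 to 2.27 CPM in the KO libraries and at 5.89 to 9.85 CPM in the WT libraries, a log2 difference of −1.98 (SE 0.15, edgeR adjusted p = 0.000954). All 12 fibroblast markers listed had over 3 counts in at least 1 library, and their summed level was 15103 to 24211 CPM in KO and 15053 to 21508 CPM in WT. Leukocyte markers were also present in every library: the summed CPM of 12 such genes was 7216 to 12544 in KO and 5213 to 7438 in WT, and their part in the collagen differences was not tested. Library WT female 2 stood apart, with a median correlation of 0.970 with the other libraries (0.984 to 0.991 for the others). In bulk RNA, fewer cells of a type and less RNA per cell cannot be told apart. Replicates are separate animals per the study's design text, and values below are listed in the order of replicate number, which carries no ranking.

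Promoter windows, from 250 bases before to 50 bases after the annotated start, were found for 35 of the 44 members in the RefSeq table of build GRCm38.p6. Col4a1 and Col4a2, which encode the major chains of basement membrane collagen, are shown because they are transcribed away from a shared start region and because their levels moved together across the libraries. The Col4a1 window is chr8:11312777-11313076 on the minus strand and the Col4a2 window is chr8:11312555-11312854 on the plus strand. Capitals mark the 78 bases that both windows contain, each read on its own strand.
Col4a1: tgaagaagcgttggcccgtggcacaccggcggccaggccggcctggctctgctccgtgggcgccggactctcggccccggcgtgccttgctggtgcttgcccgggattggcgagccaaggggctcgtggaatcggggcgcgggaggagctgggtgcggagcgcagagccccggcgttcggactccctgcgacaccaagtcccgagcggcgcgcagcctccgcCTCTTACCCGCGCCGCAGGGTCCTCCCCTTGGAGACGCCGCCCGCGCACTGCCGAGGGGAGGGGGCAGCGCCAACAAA
Col4a2: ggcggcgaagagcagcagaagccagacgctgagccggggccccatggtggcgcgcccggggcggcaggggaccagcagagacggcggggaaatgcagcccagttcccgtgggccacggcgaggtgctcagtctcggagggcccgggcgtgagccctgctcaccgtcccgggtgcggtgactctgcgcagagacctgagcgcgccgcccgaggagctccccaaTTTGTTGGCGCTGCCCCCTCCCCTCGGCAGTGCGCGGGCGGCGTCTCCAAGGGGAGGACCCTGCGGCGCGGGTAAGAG

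Col1a2 and Col3a1, chains of the most abundant fibrillar collagens, are shown because Col3a1 varied across the libraries more than Col1a2. The Col1a2 window is chr6:4505368-4505667 and the Col3a1 window is chr1:45311288-45311587, both on the plus strand. Capitals mark matches on either strand to the CCAAT box, to the GC box GGGCGG or to the TATA motif TATAAA.
Col1a2: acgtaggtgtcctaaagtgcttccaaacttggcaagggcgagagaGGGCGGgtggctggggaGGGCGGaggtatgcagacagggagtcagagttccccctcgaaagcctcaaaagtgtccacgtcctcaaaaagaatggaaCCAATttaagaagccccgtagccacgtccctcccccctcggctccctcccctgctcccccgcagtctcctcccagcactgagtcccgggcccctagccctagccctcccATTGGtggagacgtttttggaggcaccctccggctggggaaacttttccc
Col3a1: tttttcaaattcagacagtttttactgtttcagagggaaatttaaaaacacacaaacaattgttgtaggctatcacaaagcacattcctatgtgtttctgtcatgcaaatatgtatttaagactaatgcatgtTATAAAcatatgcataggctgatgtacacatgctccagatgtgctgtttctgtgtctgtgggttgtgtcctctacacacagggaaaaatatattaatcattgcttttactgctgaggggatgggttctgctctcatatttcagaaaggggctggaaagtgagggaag
The Col1a2 window held 2 matches each to CCAAT and GGGCGG, and the Col3a1 window held 1 match to TATAAA. GC content was 61% in the former and 37.7% in the latter. Over all 38 windows of collagen genes, 34.2% held CCAAT, 60.5% GGGCGG and 13.2% TATAAA, against 37.4%, 35.7% and 13.6% of all 32851 windows of the table. These 3 motifs do not overlap each other in sequence, and a match describes letters, not binding. Median GC content was 59.8% over the collagen windows and 52.7% over all windows.

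Type I collagen dominated the collagen RNA of these cells. Per length (RPKM, the CPM per kilobase of exon), the mean over the 11 libraries was 2214 for Col1a1, 638 for Col1a2 and 484 for Col3a1. Next came Col4a1 at 187, Col5a2 at 168, Col4a2 at 155 and Col5a1 at 148 RPKM, then Col12a1, Col6a1 at 56.6 and Col4a5 at 37.7 RPKM. Col1a1 alone took 47.5% to 56.3% of the summed collagen RPKM of a library (median 50.9%), and Col1a2 took 13.9% to 15.4%. Col3a1, which forms thinner fibrils, varied far more, from 4.56% to 16.3%. The shares of Col5a2 (3.41% to 4.82%), Col4a1 (2.82% to 6.88%), Col5a1 (2.76% to 4.43%) and Col4a2 (2.29% to 5.20%) overlapped, so their order is not fixed across libraries.

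Collagen genes together took 2.99% to 4.03% of the Ensembl gene counts in the KO libraries (mean 3.61% ± 0.450, SD, n = 6) and 3.52% to 4.53% in the WT libraries (mean 4.05% ± 0.478, SD, n = 5). The ranges overlapped, and the lowest shares were in KO male 2 and KO male 1, at 2.99% and 3.14%. The fibrillar class made up most of this, with 3.10% ± 0.382 of the counts in KO (SD, n = 6) and 3.42% ± 0.424 in WT (SD, n = 5). Basement membrane genes took 0.280% ± 0.0699 and 0.358% ± 0.116, and FACIT genes 0.145% ± 0.0228 and 0.171% ± 0.0656 (SD, n = 6 and 5).

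**Figure D1:**
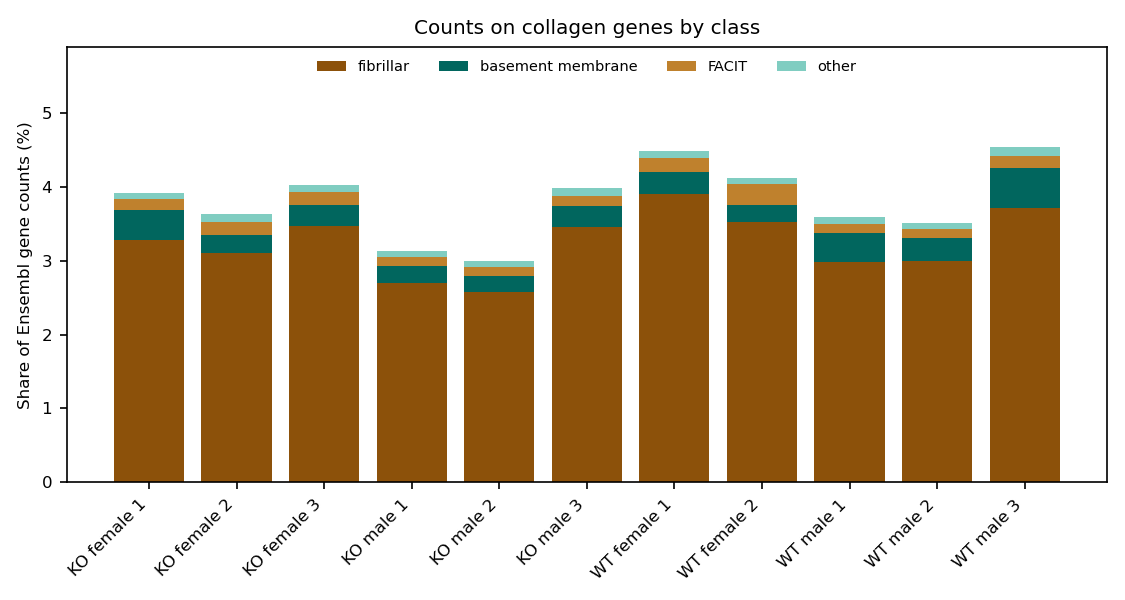
Share of the Ensembl gene counts of each library that fell on collagen genes, in percent, stacked by collagen class. Fibrillar genes form most of each bar, and the whole bar runs from 2.99% in KO male 2 to 4.53% in WT male 3.

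Of the 44 members, 35 passed the filter on low counts in the comparison of KO and WT over both sexes, and none of them passed the test. The background was also near nothing: 0.00448% of the 22298 genes and repeats tested were called in this comparison, which is Cgas alone. At an unadjusted p under 0.05 edgeR gave 4 of the 35 members, Col10a1, Col18a1, Col11a1 and Col9a3, where 17.2% of all entries passed that mark. DESeq2 and limma-voom called 0 of the 35 members too, where they called 2.35% and 4.39% of all entries. The members' fitted log2 differences leaned to lower values in KO: 7 of 35 were above 0, against 48.5% of all entries, and their median was −0.25 against −0.01 over all entries. The class medians were −0.27 for basement membrane, −0.31 for FACIT, −0.24 for fibrillar and −0.22 for other members. In 0 of 35 members were the KO and WT libraries free of overlap (1.36% of all entries were).

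Within each sex the numbers called were also 0 of 37 members tested. In males (3 KO, 3 WT) the background was 1.22% called (0.719% higher and 0.501% lower in KO), and 10 members had an edgeR unadjusted p under 0.05 (22.1% of all entries). In females (3 KO, 2 WT) the background was 0.00436% called, and 6 members had an edgeR unadjusted p under 0.05 (6.63% of all entries). DESeq2 called 3 members in males, all lower in KO (Col11a1, Col4a1 and Col4a2). This is 8.11% of the 37, against 9.22% of all entries called and 3.62% called lower. limma-voom called 5 in males, all lower (Col4a1, Col4a3, Col4a4, Col5a2 and Col10a1), or 13.5%, against 15.4% called and 6.49% called lower. Counted in either direction, the members' shares were near those of all entries. In females neither called any member, and they called 0.0261% and 0% of all entries. For the difference of the genotype effect between the sexes the background was 0% called, and 6 members had an edgeR unadjusted p under 0.05 (12.9% of all entries) and 19 of 37 were above 0 (47.1% of all entries). The median log2 difference of the members was −0.26 in males (12 of 37 above 0, against 47.7% of all entries) and −0.15 in females (13 of 37 above 0, against 53.8%), while over all entries it was −0.02 and 0.03. KO and WT libraries did not overlap for 9 of 37 members in males (24.3%, against 30.9% of all entries) and for 5 of 37 in females (13.5%, against 19.7%). Col9a2 and Col13a1 are the members tested within sexes only, and each passed the filter there through the 2 libraries in which it was highest. For Col9a2 these are both WT females, so that its female difference was bound to be large. It is among the members counted above by unadjusted p in females and for the difference between the sexes. It is also among those without overlap in females. Without WT female 1, which leaves WT female 2 as the lone WT female, edgeR called 9 of 38 members in females (23.7%, against 15.3% of all entries) and 5 for the difference between the sexes (13.2%, against 10.1%). That lone library is assumed to vary like the other groups.

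**Figure D2:**
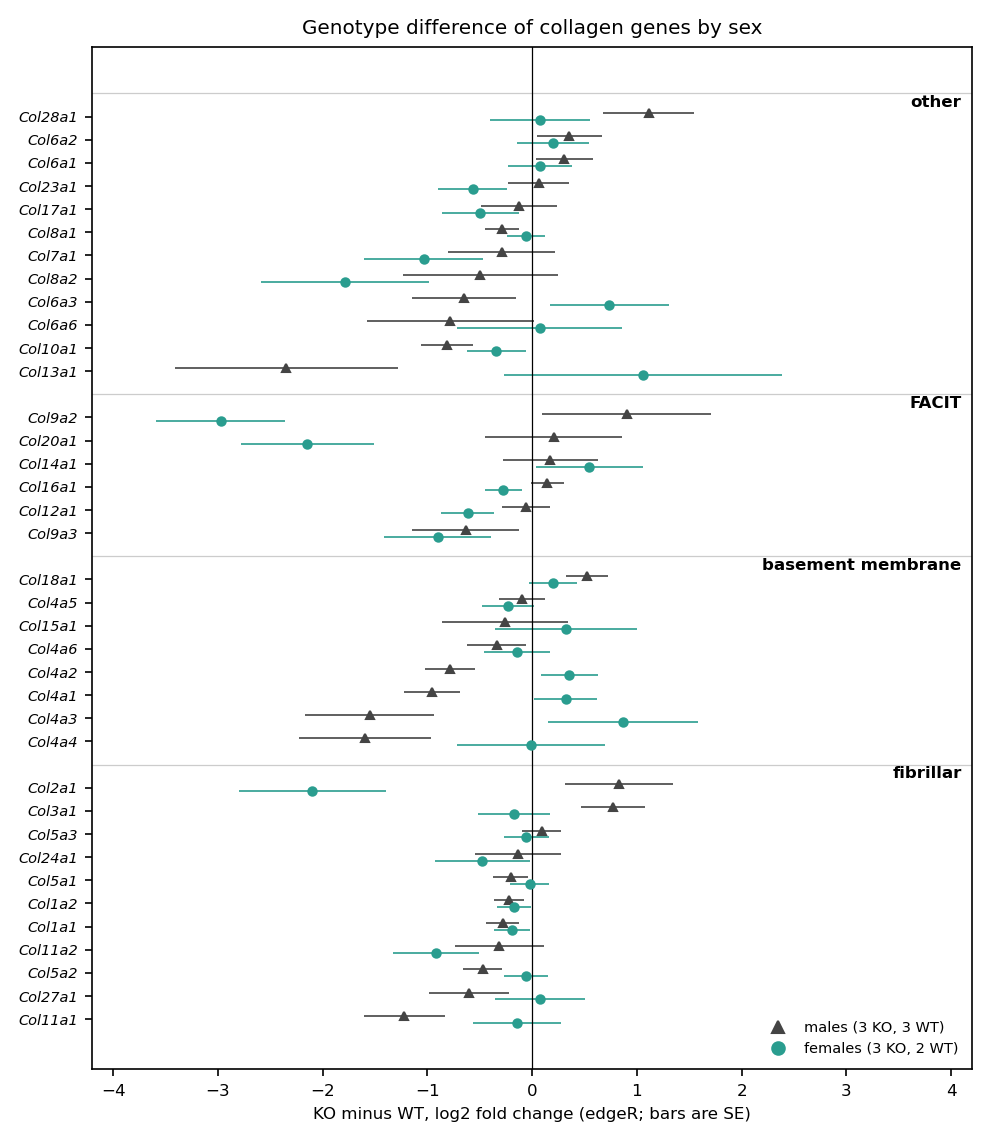
Fitted log2 difference KO minus WT for the 37 tested collagen genes, in males (triangles) and females (circles), with SE as bars, by class. In males Col4a1, Col4a2, Col4a3 and Col4a4 lie left of 0 and Col3a1 and Col28a1 lie right of it; no difference passed the edgeR threshold.

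Among fibrillar collagens, Col1a1 and Col1a2, the chains of type I collagen, had lower means in KO without passing the test. Col1a1 (ENSMUSG00000001506) stood at 15790.3, 13469.5 and 15650.3 CPM in KO females, 11329.6, 10984 and 14067 in KO males, 17024 and 17250.4 in WT females and 14971, 12762 and 16544 in WT males. The KO and WT ranges overlapped in males, while both WT females were above all KO females. Means were 13548 ± 2060.0 CPM (SD, n = 6) in KO and 15710.2 ± 1873 CPM (SD, n = 5) in WT, and the log2 difference was −0.24 (SE 0.12, edgeR adjusted p = 0.312). Col1a2 (ENSMUSG00000029661) stood at 8556, 7511 and 8449 CPM in KO females, 6266, 6436 and 7697 in KO males, 9556 and 8874 in WT females and 7327, 7293 and 9202 in WT males. It showed the same arrangement, with a log2 difference of −0.20 (SE 0.11, edgeR adjusted p = 0.354). The ratio of Col1a1 to Col1a2 counts stayed between 1.71 and 2.04, with a coefficient of variation of 5.06% over the 11 libraries.

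Col3a1 (ENSMUSG00000026043), the chain of type III collagen, ordered the libraries in another way than type I. Its level was 3714, 4806 and 5153 CPM in KO females, 5821, 5002 and 7011 in KO males, 6323 and 3969.9 in WT females and 1847, 4255 and 4349 in WT males. All 3 KO males were above all 3 WT males, and WT male 1 was by far the lowest library. The log2 difference was 0.77 (SE 0.31, edgeR adjusted p = 0.176) in males and −0.18 (SE 0.34, edgeR adjusted p = 0.86) in females, and 0.34 (SE 0.26, edgeR adjusted p = 0.522) over both sexes. The Col3a1 to Col1a1 count ratio ran from 0.123 in WT male 1 to 0.514 in KO male 1, and was 0.398 ± 0.109 in KO (SD, n = 6) and 0.264 ± 0.0965 in WT (SD, n = 5). This ratio was chosen after its values were seen and was not tested. An annotated gene model, Gm47302, overlaps Col3a1 exons on the same strand.

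Col11a1 (ENSMUSG00000027966), a minor chain found inside fibrils, was at 57.0, 28.0 and 71.4 CPM in KO females, 30.4, 25.9 and 32.4 in KO males, 38.3 and 76.7 in WT females and 49.1, 52.9 and 105 in WT males. In males each KO library was below each WT library, whereas the female groups overlapped. The log2 difference was −0.75 (SE 0.33, edgeR adjusted p = 0.269) over both sexes and −1.22 (SE 0.39, edgeR adjusted p = 0.104) in males, where DESeq2 called it (log2 −1.23, DESeq2 adjusted p = 0.0174). Col5a1 and Col5a2, whose type V heterotrimers start fibril assembly, had log2 differences of −0.13 (SE 0.13) and −0.29 (SE 0.15). The remaining fibrillar members over both sexes lay between −0.62 for Col11a2 and 0.03 for Col5a3 (edgeR adjusted p = 0.309 and 0.938). Without WT female 2 that of Col11a2 was −0.09.

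Col2a1 (ENSMUSG00000022483), the major collagen of cartilage, was a low gene with a wide spread. It was read at 0.634, 0.291 and 0.403 CPM in KO females, 15.6, 5.72 and 4.55 in KO males, 2.68 and 1.18 in WT females and 4.49, 2.53 and 7.56 in WT males. The KO females were the lowest 3 libraries and KO male 1 the highest, and the range from lowest to highest was 53.8-fold. The log2 difference was −2.10 (SE 0.70, edgeR adjusted p = 0.671) in females and, in males, 0.83 (SE 0.52, edgeR adjusted p = 0.376). The difference between the sexes in this effect was 2.93 (SE 0.87, edgeR adjusted p = 0.307); DESeq2 called it (log2 2.96, DESeq2 adjusted p = 0.0337), as it did 0.976% of all entries. Of 8 cartilage markers listed, Matn1, Cnmd, Hapln1 and Ucma had at most 3 counts in every library, and the list's summed level was 29.5 to 37.6 CPM in KO and 24.1 to 49.0 CPM in WT, apart from WT female 2, which was lower. Its part in the Col2a1 values was not tested.

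The basement membrane genes Col4a1 and Col4a2 had fitted differences of opposite sign in males and females, neither of which passed the test. Col4a1 (ENSMUSG00000031502) stood at 1962, 1006 and 1214 CPM in KO females, 967, 934 and 1146 in KO males, 1252 and 984 in WT females and 1839.6, 1433 and 2630.1 in WT males. In males the 3 KO libraries were all below the 3 WT libraries; in females KO female 1 was the highest and the other libraries lay close together. The log2 difference was −0.95 (SE 0.27, edgeR adjusted p = 0.08) in males, 0.32 (SE 0.30, edgeR adjusted p = 0.709) in females and −0.41 (SE 0.28, edgeR adjusted p = 0.467) over both sexes. Col4a2 (ENSMUSG00000031503) stood at 1419, 837 and 952 CPM in KO females, 754, 715 and 891 in KO males, 965 and 707 in WT females and 1293, 1008 and 1763 in WT males. It repeated this order, with −0.78 (SE 0.24, edgeR adjusted p = 0.098) in males and 0.36 (SE 0.27, edgeR adjusted p = 0.682) in females. The difference of the effect between the sexes was −1.27 for Col4a1 (SE 0.40) and −1.14 for Col4a2 (SE 0.36), with an edgeR adjusted p of 0.308 for each, and so did not pass. DESeq2 called both lower in KO males (log2 −0.97 and −0.80, DESeq2 adjusted p = 0.00852 and 0.0203). Without WT male 2 edgeR called Col4a1 lower in KO males (log2 −1.15, edgeR adjusted p = 0.048) and not Col4a2, and it then called 4.19% of all entries. Exons of these genes overlap on opposite strands and the strand setting of the counting was not given, so reads in the overlap cannot be assigned to one of them.

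Marker sums of several cell types were also apart between the male groups. The summed level of 12 smooth muscle and myofibroblast genes, among them Acta2, Cnn1 and Myh11, was 2167 to 3386 CPM in KO males and 4281 to 7089 CPM in WT males, without overlap. In females it was 3569 to 5656 CPM in KO and 3513 to 4443 CPM in WT, and KO female 1 was the highest of them. All 12 had log2 differences below 0 in males, and 4 of them (Cnn1, Myh11, Tpm1 and Lmod1) passed the test (edgeR adjusted p = 0.0478 for each). The summed level of 8 pericyte markers was 91.9 to 117 CPM in KO males and 119 to 188 CPM in WT males, and that of 10 epithelial markers was 10.6 to 14.0 and 22.4 to 55.5 CPM. That of 12 leukocyte markers was higher in KO males, at 7383 to 12544 against 5213 to 6998 CPM. That of 12 fibroblast markers, most of it from Fn1, was 15103 to 16252 in KO males and 16627 to 20983 CPM in WT males. Of these 12 markers, 7 had log2 differences above 0 in males. In the summed level of each of these lists the male groups did not overlap, while the mesothelial, cartilage and proliferation sums overlapped. Of all single entries, 30.9% were without overlap between the male groups and 1.22% were called. Mcam, a pericyte and endothelial adhesion molecule, passed the test as lower in KO males, and the leukocyte genes Adgre1, Cd68, Laptm5 and Fcer1g passed it as higher (edgeR adjusted p = 0.0478 for each). The 10 endothelial markers had a median log2 difference of −2.01 in males with none past the test, while their summed level overlapped between the groups. Across the 11 libraries log2 Col4a1 followed the log2 summed contractile level with Pearson r = 0.911 (permutation p = 4e-05, adjusted p = 0.00012) and Spearman rho = 0.945 (permutation p = 8e-05, adjusted p = 0.00024). Without KO male 1 and WT male 3, the libraries farthest from the median contractile level, r was 0.938. Within the 6 males r was 0.954 (exact permutation p = 0.00556, adjusted p = 0.00833) and within the 5 females it was 0.988. Both levels were without overlap between KO and WT males, and the permutations did not hold genotype fixed. The male r therefore includes the difference between the genotypes. For Col4a2 the values were r = 0.906 (permutation p = 0.0001, adjusted p = 0.00015), rho = 0.900 (permutation p = 0.00041, adjusted p = 0.000615) and r = 0.927 without the same 2 libraries. Col4a5, a chain of other type IV networks, showed r = 0.115 (permutation p = 0.742, adjusted p = 0.742) and rho = 0.282 (permutation p = 0.402, adjusted p = 0.402), and r = −0.315 without the same 2 libraries. These 3 relations were chosen after the values were seen, and the part of contractile cells, or of the other cell types listed, in the Col4a1 and Col4a2 differences was not tested.

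**Figure D3:**
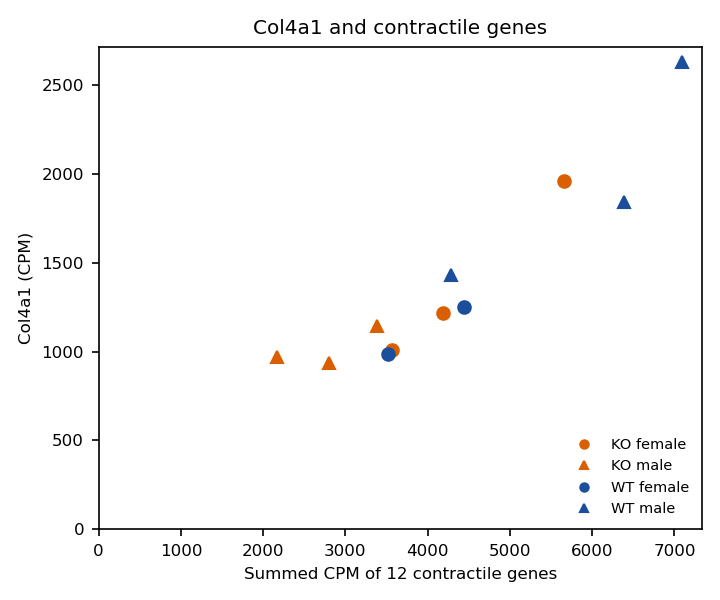
Col4a1 level (CPM) against the summed level of 12 contractile genes (CPM) in the 11 libraries; colour gives genotype and shape gives sex. KO males lie at the lower left and WT male 3 at the upper right, and KO female 1 lies near WT male 1.

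Other basement membrane members had their own patterns. Col18a1 (ENSMUSG00000001435), whose C-terminal fragment is endostatin, was at 77.1, 103 and 98.2 CPM in KO females, 80.5, 79.9 and 113 in KO males, 95.2 and 66.3 in WT females and 49.7, 73.5 and 67.1 in WT males. KO males were above WT males without overlap, WT male 1 was the lowest library, and the log2 difference over both sexes was 0.38 (SE 0.15, edgeR adjusted p = 0.246). Col4a5 (ENSMUSG00000031274) was at 278, 234 and 261 CPM in KO females, 229, 215 and 238 in KO males, 257 and 346 in WT females and 162, 229.7 and 338 in WT males, with a log2 difference of −0.16 (SE 0.16, edgeR adjusted p = 0.641). Its 2 extreme libraries, WT female 2 and WT male 1, were both WT. Col15a1, which anchors basement membranes to the fibrils beside them, ranged from 18.2 CPM in WT female 2 to 253 CPM in WT male 1, with a log2 difference over both sexes near 0 (SE 0.45).

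Col4a3 and Col4a4, which build the type IV network of alveolar and glomerular basement membranes, were low. Col4a4 (ENSMUSG00000067158) was at 1.45, 0.935 and 0.953 CPM in KO females, 0.645, 0.640 and 0.589 in KO males, 0.811 and 1.43 in WT females and 0.510, 4.15 and 0.955 in WT males. WT male 2 was far above the other libraries, which reached at most 1.45 CPM, and the log2 difference was −0.91 (SE 0.52, edgeR adjusted p = 0.381), or −0.13 without that library. Col4a3 was also highest in WT male 2, at 1.67 CPM, followed by KO female 1 at 1.22 CPM. WT male 2 had the highest summed level of 10 epithelial markers, 55.5 CPM, against 22.4 to 45.6 CPM in the other WT libraries and 10.6 to 37.4 CPM in KO. Epcam, a defining epithelial gene, was at 0.346 CPM there and at most 0.0445 CPM elsewhere. The alveolar surfactant gene Sftpc was at 10.4 CPM in WT male 2 and at most 1.79 CPM in the other libraries. These 2 were picked for being highest there, and other genes of the list were not: Krt8 and Krt7 were highest in WT male 3 (20.3 and 4.30 CPM, against 11.2 and 3.35 CPM in WT male 2) and Krt19 in KO female 1 (17.7 against 10.3 CPM). The part of epithelial RNA in these values was not tested.

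In the FACIT class, the abundant Col12a1 (ENSMUSG00000032332), found on type I fibrils of dense tissue, was at 1057, 1206 and 1334 CPM in KO females, 872, 699 and 1023 in KO males, 1353 and 2316 in WT females and 848, 722 and 1129.9 in WT males. WT female 2 was the highest library and both WT females were above the KO females, while the males overlapped. The log2 difference was −0.31 (SE 0.18, edgeR adjusted p = 0.404) over both sexes and −0.61 (SE 0.25, edgeR adjusted p = 0.671) in females. Col12a1 lies on chromosome 9 like Cgas, with 5 protein-coding genes between them in GENCODE vM21. Col14a1 (ENSMUSG00000022371), a relative that regulates fibril diameter, was at 174, 168 and 99.7 CPM in KO females, 195, 243 and 147 in KO males, 166 and 35.7 in WT females and 162, 132 and 226 in WT males. Here WT female 2 was the lowest, and the log2 difference was 0.34 (SE 0.34, edgeR adjusted p = 0.63). Col16a1 (ENSMUSG00000040690) was the steadiest of the class, from 110.0 CPM in WT male 1 to 205 CPM in WT female 2, with a log2 difference of −0.04 (SE 0.13, edgeR adjusted p = 0.888).

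Among the rarer FACIT members, WT female 2 was the highest library for Col20a1, Col9a3 and Col9a2. Col20a1 (ENSMUSG00000016356) was at 1.31, 1.41 and 1.54 CPM in KO females, 1.09, 0.640 and 0.670 in KO males, 1.28 and 11.2 in WT females and 0.510, 0.627 and 0.955 in WT males. WT female 2 was far above all others, and the log2 difference in females, −2.15 (SE 0.63, edgeR adjusted p = 0.671), was 0.14 without it. The difference over both sexes, −1.02 (SE 0.57, edgeR adjusted p = 0.37), was 0.19 without that library. In GENCODE vM21 the gene model BX649560.1 overlaps Col20a1 exons on the same strand, so reads could be shared between them. Col9a3 (ENSMUSG00000027570), a chain of the cartilage collagen type IX, was at 0.294, 0.685 and 0.403 CPM in KO females, 0.222, 0.243 and 0.366 in KO males, 0.343 and 1.38 in WT females and 0.413, 0.389 and 0.504 in WT males, with a log2 difference of −0.77 (SE 0.35, edgeR adjusted p = 0.291), or −0.29 without WT female 2. The 3 KO males lay below the 3 WT males. Its partner Col9a2 had 0.405 and 1.98 CPM in the WT females and 0.0906 to 0.187 CPM in the KO females, and 3 of the 11 libraries had at most 3 counts. The female log2 difference of Col9a2 was −2.98 (SE 0.61, edgeR adjusted p = 0.671), and without WT female 2 it was −1.41. The WT females carried Col9a2 past the filter on low counts. This difference was therefore bound to be large, and its test cannot be read as a result. The summed cartilage markers were lowest in WT female 2, the library with the highest Col9a2, Col9a3 and Col11a2. Of the other markers, Sox9 (7.87 CPM, against 19.6 to 34.6 CPM elsewhere) was lowest there, and Acan and Comp were not. Matn3 was at 0.0251 CPM there, under the floor of 3 counts, as it was in WT female 1 (0.0624 CPM), so these cannot be ordered. The part of cartilage markers in the values of these collagen genes was not tested.

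Among other types, Col6a1 and Col6a2 encode the short chains of type VI collagen and Col6a3 the long one. Col6a1 (ENSMUSG00000001119) was at 223, 304 and 332 CPM in KO females, 264, 220.3 and 248 in KO males, 266 and 278 in WT females and 105, 234 and 252 in WT males. WT male 1 lay below all other libraries, which overlapped between genotypes, and the log2 difference was 0.20 (SE 0.20, edgeR adjusted p = 0.624). Col6a3 (ENSMUSG00000048126) was at 247, 318 and 184 CPM in KO females, 201, 224 and 296 in KO males, 252 and 48.5 in WT females and 555, 230.3 and 346 in WT males. WT male 1 was the highest library and WT female 2 the lowest, an 11.4-fold range, and the log2 difference was −0.06 (SE 0.43, edgeR adjusted p = 0.961). The Col6a3 to Col6a1 count ratio was 5.28 in WT male 1, 0.174 in WT female 2 and 0.554 to 1.37 in the other 9 libraries.

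Col8a1 (ENSMUSG00000068196), a short network-forming chain made by vascular and mesenchymal cells, was at 223, 198 and 237 CPM in KO females, 200.1, 224 and 216 in KO males, 181 and 277 in WT females and 228, 249 and 305 in WT males. In males KO lay below WT without overlap, and the log2 difference was −0.19 (SE 0.12, edgeR adjusted p = 0.441) over both sexes. Its partner Col8a2 (ENSMUSG00000056174) was far rarer, 1.31, 0.582 and 0.403 CPM in KO females, 1.60, 0.309 and 0.874 in KO males, 0.811 and 4.56 in WT females and 0.485, 1.51 and 1.94 in WT males, with a log2 difference of −1.09 (SE 0.56, edgeR adjusted p = 0.337); WT female 2 was the highest, and without it the difference was −0.36. Col10a1 (ENSMUSG00000039462), known from hypertrophic cartilage, had the smallest p among members over both sexes. It was at 0.521, 0.831 and 0.660 CPM in KO females, 0.712, 0.464 and 0.609 in KO males, 0.748 and 0.952 in WT females and 1.21, 0.952 and 0.981 in WT males, which is 18 to 50 counts per library. KO males lay below WT males without overlap, and KO female 2 overlapped with the WT females. The log2 difference was −0.61 (SE 0.19, edgeR adjusted p = 0.179) over both sexes and −0.81 (SE 0.24, edgeR adjusted p = 0.0926) in males; limma-voom called it in males (log2 −0.89, limma adjusted p = 0.0265). Exons of Nt5dc1 overlap Col10a1 on the opposite strand. Col28a1, a relative of type VI chains, was at 15.5, 19.6 and 21.9 CPM in KO males and 3.54, 15.0 and 7.74 CPM in WT males, without overlap, with a log2 difference in males of 1.11 (SE 0.44, edgeR adjusted p = 0.168). Without WT male 2 it was 1.74 and passed the test (edgeR adjusted p = 0.0457).

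**Figure D4:**
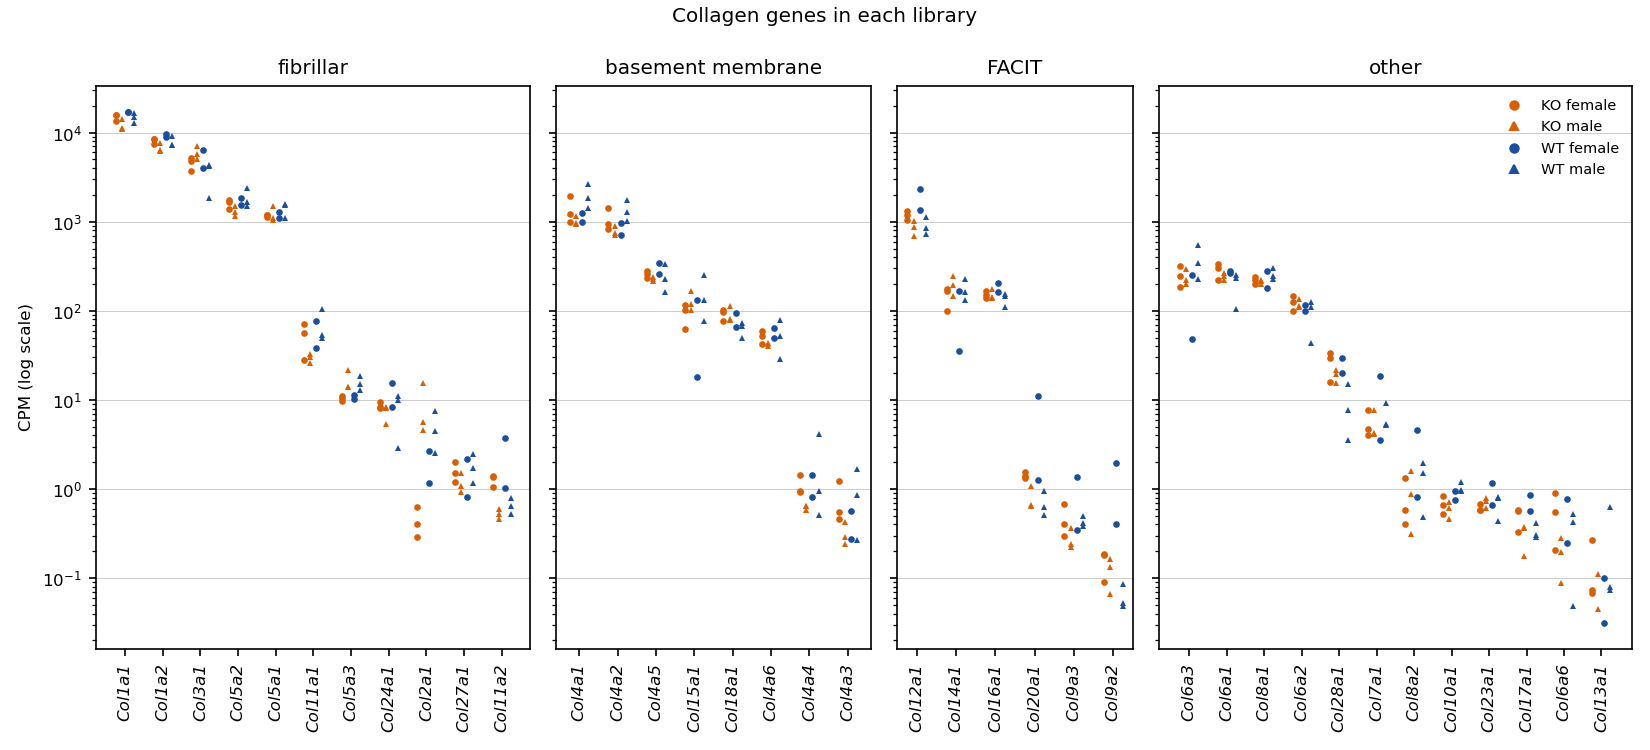
Level of each of the 37 collagen genes tested in at least 1 comparison, in CPM on a log scale, in the 11 libraries, by class and ordered by mean level within it; colour gives genotype, shape gives sex, and a library with 0 counts is not drawn. Levels run over more than 5 orders of magnitude, and WT female 2 lies apart at Col15a1, Col14a1, Col20a1, Col9a2 and Col6a3.

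Chains that share a protein or a start region were compared across the 11 libraries in 8 pairs (log2 CPM, p adjusted over the 8). Col4a1 and Col4a2 had Pearson r = 0.990 (permutation p = 1e-05, the smallest these permutations can give, adjusted p = 8e-05) and Spearman rho = 0.973 (permutation p = 2e-05, adjusted p = 0.00016). Without KO female 1 and WT male 3 r was 0.972. Col1a1 and Col1a2 had r = 0.951 (permutation p = 3e-05, adjusted p = 8e-05) and rho = 0.936 (permutation p = 0.00013, adjusted p = 0.00052), and r = 0.892 without KO male 1 and KO male 2. Col4a5 and Col4a6, neighbours on the X chromosome, had r = 0.943 (permutation p = 3e-05, adjusted p = 8e-05) and rho = 0.845 (permutation p = 0.0019, adjusted p = 0.00507), and r = 0.926 without WT female 2 and WT male 1. These 3 relations therefore held without their extreme libraries. Within the 6 males r was 0.998, 0.924 and 0.957 for the 3 pairs (exact permutation p = 0.00139, 0.00972 and 0.0264, adjusted p = 0.0111, 0.0194 and 0.0422). Their rho in males was 1, 0.886 and 0.657. Col4a1 and Col4a2 were each without overlap between KO and WT males, and these permutations did not hold genotype fixed.

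Other pairs depended on their extreme libraries or did not pass. Col6a1 and Col6a2 had r = 0.947 (permutation p = 0.00178, adjusted p = 0.00356) and rho = 0.718 (permutation p = 0.0165, adjusted p = 0.0264), but r was 0.436 without KO female 3 and WT male 1, so over the 11 libraries the relation rests on those. Within the 6 males, WT male 1 included, r was 0.994 and rho 0.943 (exact permutation p of r = 0.00278, adjusted p = 0.0111), and within the 5 females r was 0.844. Col4a3 and Col4a4 had r = 0.768 (permutation p = 0.00445, adjusted p = 0.00712) and rho = 0.773 (permutation p = 0.00742, adjusted p = 0.0148), and r = 0.361 without KO female 1 and WT male 2, on which it rests. Within the males, WT male 2 included, r was 0.921 and rho 0.943 (exact permutation p of r = 0.00694, adjusted p = 0.0185), and within the females r was 0.110. Col6a1 and Col6a3 gave r = −0.516 (permutation p = 0.115, adjusted p = 0.131) and rho = −0.373 (permutation p = 0.262, adjusted p = 0.299). Col5a1 and Col5a2 gave r = 0.553 (permutation p = 0.0781, adjusted p = 0.104) and rho = 0.564 (permutation p = 0.0758, adjusted p = 0.101). Col8a1 and Col8a2 gave r = 0.481 (permutation p = 0.134, adjusted p = 0.134) and rho = 0.345 (permutation p = 0.301, adjusted p = 0.301). Libraries of a pair share depth and scaling.

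**Figure D5:**
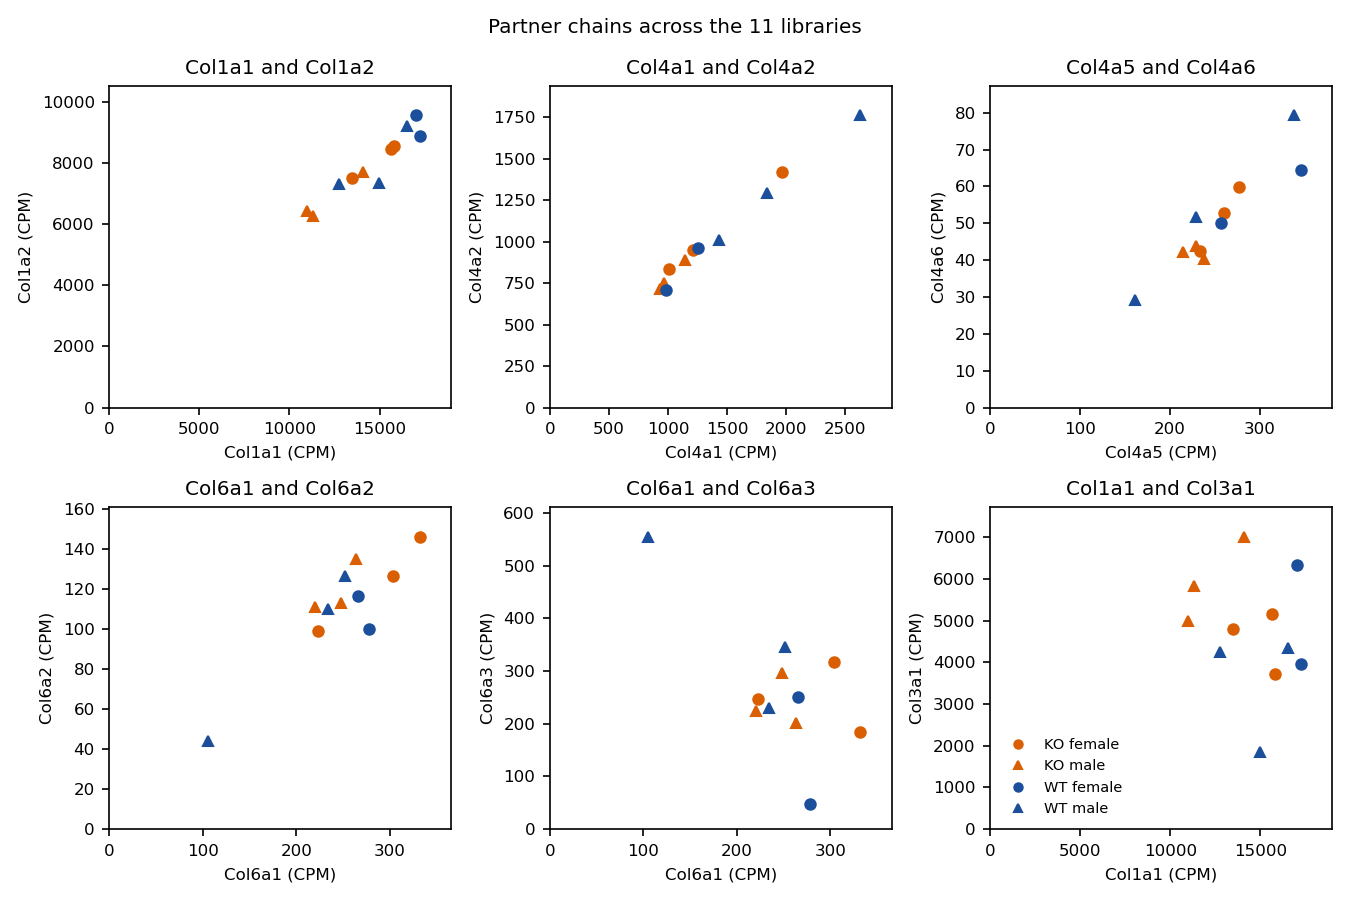
Levels (CPM) of 6 pairs of collagen genes across the 11 libraries; colour gives genotype and shape gives sex. Points of Col1a1 with Col1a2, Col4a1 with Col4a2 and Col4a5 with Col4a6 lie along a line, WT male 1 sits alone in both panels of Col6a1, and Col3a1 spreads at like levels of Col1a1.

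Between males and females, adjusted for genotype, 4 of 35 members passed the test, where 4.82% of all entries were called (2.64% higher and 2.18% lower in males); 10 members had an edgeR unadjusted p under 0.05 (27.8% of all entries). Col5a3 (ENSMUSG00000004098), a rarer type V chain, was at 10.6, 11.1 and 9.64 CPM in KO females, 14.0, 14.1 and 21.8 in KO males, 11.4 and 10.4 in WT females and 13.0, 15.1 and 18.7 in WT males. Every male library was above every female library, and it was higher in males by a log2 difference of 0.60 (SE 0.14, edgeR adjusted p = 0.0413). Col11a2 (ENSMUSG00000024330), a partner of Col11a1, was at 1.04, 1.37 and 1.39 CPM in KO females, 0.601, 0.464 and 0.528 in KO males, 1.03 and 3.71 in WT females and 0.801, 0.649 and 0.530 in WT males. Each male library was below each female library, and the log2 difference was −1.53 (SE 0.30, edgeR adjusted p = 0.0279). Col2a1 was higher in males by 2.79 (SE 0.63, edgeR adjusted p = 0.0405) on the log2 scale and Col12a1 was lower, with a log2 difference of −0.72 (SE 0.18, edgeR adjusted p = 0.0496), both with overlapping ranges. Male and female libraries did not overlap for Col11a2, Col20a1 and Col5a3 (8.57% of 35 members, against 5.38% of all entries). Summed proliferation markers (10 genes) were 552 to 1131 CPM in males and 273 to 535 CPM in females, without overlap, and their part in these differences was not tested. Without WT female 2 and KO male 1, 0 of the 4 passed (edgeR adjusted p = 0.0625 to 0.132). Leaving out 1 library at a time, Col11a2 was lost in 5 of 11 fits, Col2a1 in 7, Col5a3 in 8 and Col12a1 in 9 (edgeR adjusted p up to 0.123).

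The 7 members tested in no comparison were at the floor of these libraries or near it. Col9a1, a type IX chain, had counts in 1 library only, 2 counts in KO male 1, and Col25a1, a neuronal transmembrane collagen, had 1 count in each of 2 libraries. Col26a1 had at most 2 counts and Col22a1 at most 4 counts per library. Col19a1, Col6a4 and Col6a5 had at most 8, 6 and 12 counts per library. No fold change is given for these genes, since most values lie at or under 3 counts or close to it.

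Genes that modify, export, cleave, crosslink, bind or degrade collagen were examined beside the chains themselves. Of 52 such genes 50 were tested over both sexes; none passed the test, 8 had an edgeR unadjusted p under 0.05 (16.0%, against 17.2% of all entries), and 17 had a log2 difference above 0 (34.0%, against 48.5%). DESeq2 and limma-voom called 1 each, Loxl3, which is 2.00% of the list against 2.35% and 4.39% of all entries. The list's median log2 difference was −0.08, against −0.01 over all entries. Loxl3, a lysyl oxidase that crosslinks chains, was at 82.2, 76.1 and 90.5 CPM in KO females, 70.3, 75.3 and 79.6 in KO males, 90.3 and 107 in WT females and 154, 97.5 and 104 in WT males. Its log2 difference was −0.48 (SE 0.13, edgeR adjusted p = 0.173). P3h1, a prolyl 3-hydroxylase, was at 72.0 ± 7.84 CPM (SD, n = 6) in KO and 86.6 ± 7.73 CPM (SD, n = 5) in WT, with a log2 difference of −0.28 (SE 0.09, edgeR adjusted p = 0.186). Pepd, the dipeptidase that recycles proline from collagen, was at 39.1 ± 6.15 CPM (SD, n = 6) in KO and 32.5 ± 4.44 CPM (SD, n = 5) in WT, with a log2 difference of 0.28 (SE 0.09, edgeR adjusted p = 0.189). By role, log2 differences were above 0 in 5 of 12 hydroxylases and their partners, 4 of 12 folding and export genes, 4 of 7 propeptide processing genes, 2 of 5 crosslinking genes, 1 of 8 receptors and 1 of 6 degradation genes.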

How the data were processed

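For each library the authors deposited a file of unnormalized read counts over 56980 Ensembl genes and 1243 repeat subfamilies. The submitters' processing notes list Trim Galore, STAR and the genome build GRCm39, without versions or roles. What counted the reads, with which annotation, strand setting and rule for multi-mapping reads, is not given in the sources used here. Symbols and exon lengths came from GENCODE vM21 (build GRCm38), which named 52073 of the 56980 gene IDs, and promoter sequences came from RefSeq (GRCm38.p6).

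Genes and repeats were fitted together in R 4.3.3 with edgeR 4.0.16 (TMM scaling; filterByExpr, minimum count 10; quasi-likelihood F-test). Benjamini-Hochberg adjustment ran over the whole fitted table, and an adjusted p under 0.05 was a call. KO minus WT over both sexes and male minus female used a model with sex and genotype. Contrasts within a sex, and their difference, used 1 mean per genotype and sex. CPM used TMM-scaled library sizes (factors 0.963 to 1.03), and RPKM divided them by exon-union length. Alternatives were DESeq2 1.42.0, limma 3.58.1 (voom with sample quality weights), other scalings and filters, a replicate block, no sex term and leaving out libraries. Correlations used 100000 permutations, or all of them within the males.

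The edgeR step was tested on simulated data for KO minus WT over both sexes (22180 entries fitted). It recovered 48 of 50 entries lowered by a log2 of 1 and 50 of 50 at each of the other sizes (1, −2 and 2), with 12 false calls. The simulated counts had the same spread for every entry, no sex effect and no outlying library, and only entries above 1 CPM were changed. They therefore do not give the power of the tests in the real libraries. No libraries of the same genotype and sex were duplicates: the chi-square per degree of freedom within groups was 12.0 to 144. Libraries of different groups were not checked in this way. Replicate numbers gave no sign of pairing in the male libraries, and in the female libraries this could not be checked. The floor of 3 counts covers counting error only, whereas the SEs and SDs include the spread between animals.

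Members and gene lists were chosen with earlier results of these data known. The genes named are the members past the threshold in any contrast, the 3 most abundant members of each class, the 2 with the smallest p per class over both sexes, the 2 with the smallest p within each sex and for their difference, and 3 biosynthesis genes. Others are given as ranges and counts, belong to the list of partner pairs (Col4a3, Col5a1, Col5a2 and Col6a2), or were chosen after their values were seen (Col15a1 and Col28a1).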

Additional observations from a re-analysis of the deposited data

Results flagged for a closer look

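Among the 23 named collagen genes, the KO libraries and the WT libraries of each gene were searched for a lone library whose gap to the nearest other, over the whole range of the group, passed Dixon's critical value. This marked 10 of 46 groups. Chance marks about 1 in 20 only where values are normally distributed and libraries alike. These groups pooled both sexes in CPM, some genes were named for their small p, and genes that share a library are not independent. The share marked can therefore not be set against that rate.

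Library WT female 2 was the lone high WT library for 4 low genes. Col20a1 was at 11.2 CPM there against 0.510 to 1.28 CPM in the other WT libraries, Col11a2 at 3.71 against 0.530 to 1.03, Col9a2 at 1.98 against 0.0485 to 0.405, and Col9a3 at 1.38 against 0.343 to 0.504 CPM.

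KO female 1 was the lone high KO library for both chains of the main basement membrane collagen. Col4a1 was at 1962 CPM there against 934 to 1214 CPM in the other KO libraries, and Col4a2 at 1419 against 715 to 952 CPM. The summed contractile markers were also highest of the KO libraries in KO female 1, at 5656 CPM against 2167 to 4189 CPM.

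Single libraries stood apart for 4 further genes. Col6a1 was low in WT male 1, at 105 CPM against 234 to 278 CPM. Col4a4 was high in WT male 2, at 4.15 CPM against 0.510 to 1.43 CPM. Col2a1 was high in KO male 1, at 15.6 CPM against 0.291 to 5.72 CPM. Col5a3 was high in KO male 3, at 21.8 CPM against 9.64 to 14.1 CPM in the other KO libraries.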

How the results depend on the processing

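The count of collagen genes called for KO minus WT over both sexes was 0 under all 21 alternatives run, and the members' median log2 difference stayed below 0, from −0.35 to −0.14 (all entries: −0.04 to 0.01). In males DESeq2 called 3 members, limma-voom 5 and the fit without a filter 2 (9.22%, 15.4% and 2.82% of all entries); leaving out 1 library gave 0 to 2, the 2 without WT male 2. In its fit over both sexes, limma-voom gave WT male 2 a weight of 4.54 and WT female 2 one of 0.150. The weights of its fit within the sexes are not given. In females leaving out 1 library that is not a WT female gave 0 calls. A fit that leaves 1 WT female shows no spread in that group, so its calls are left out. For the difference between the sexes DESeq2 called 1 member (0.976%), and leaving out 1 library that is not a WT female gave 0. For male minus female, whose alternatives were added after seeing the data, DESeq2 called 9 of 35 (25.7%, against 12.8% of all entries) and limma-voom 8 (22.9%, against 24.7%). The fit without WT female 2 and KO male 1 called 0 of 36 (0.920% of all entries), and leaving out 1 library gave 0 to 7, the 7 without WT female 1 (19.4% of 36, against 14.7%). Of the biosynthesis genes DESeq2 and limma-voom called 1 each, and leaving out 1 library gave 0 to 1, the 1 without WT female 1. Calls over all entries for KO minus WT over both sexes were 1 in edgeR, 525 in DESeq2 and 979 in limma-voom. The fit without a filter called 3 and the fit without WT female 1 called 1616. In males they ran from 0 to 3538.

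Over both sexes, leaving out 1 library moved the fitted difference by over 1.5 times for 18 of the 22 named members, 13 of them without WT female 2. Directions turned for 5 genes whose differences were small or rested on single libraries; the cause was not tested. Col2a1 was 1.09 in limma-voom and 0.31 with no sex term, and −0.82 to 0.24 leaving out 1 library. Col6a3 was −0.44 to 0.20 leaving out 1 library. Col5a3 was −0.0174 with no sex term and −0.12 to 0.084 leaving out 1 library. Col16a1 was 0.077 without WT female 2 and KO male 1, and −0.15 to 0.070 leaving out 1 library. Col20a1 was −1.26 to 0.19 leaving out 1 library. In females Col20a1 was 0.13 without those libraries and −2.98 to 0.14 leaving out 1. With the replicate number as a block, the count of collagen calls was 0, Col6a3 turned to 0.11, and the 1 call over all entries was lost (Cgas, edgeR adjusted p = 0.063). The deviation of each library from the mean of its genotype and sex was compared between KO and WT libraries of the same sex. In males these deviations correlated at −0.184 to 0.113 for same-numbered libraries and at −0.325 to 0.278 for other pairs. The numbers thus gave no sign of pairing in males. The deviations of the 2 WT females mirror each other by construction, so the female values cannot show whether the numbers pair.

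With 2 WT females, 1 of which stood apart, female differences and differences between the sexes are known poorly. Members under about 1 CPM rest on few counts. The collagen share of counts was 3.38% in KO and 3.74% in WT when repeats were included in the total.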
